A study of Homo sapiens with 6 samples.

Results

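The Hippo pathway effectors YAP (gene YAP1) and TAZ (WWTR1), the transcription factors TEAD1 to TEAD4 that carry them to DNA, and 4 of their textbook target genes (CCN1, CCN2, ANKRD1 and NT5E) were followed in vesicle RNA. The 10 genes were chosen by symbol as known members of the pathway, with earlier results of these data known. They are 10 of the 38167 genes in the count table, and all 10 passed the filter on low counts. The RNA came from small extracellular vesicles in the medium of spheroids of Cal27, an established tongue squamous carcinoma line, grown by liquid overlay to day 14, and the vesicles were isolated by dielectrophoresis. The stiff group had 3 libraries, from spheroids in Matrigel at 12 mg/mL. The soft group had 3 libraries, from spheroids in Matrigel at 3 mg/mL. The groups share the cell line, the day and the vesicle isolation, so the results describe 1 line in 1 gel material. The labels call the libraries biological replicates without saying whether they came from separate cultures, so p-values measure the spread between these libraries.

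The pathway is the best known route by which cells translate matrix stiffness into transcription. On a stiff support YAP and TAZ enter the nucleus, bind TEADs and switch on genes for matricellular proteins and cytoskeletal regulators. On a soft support the kinases LATS1 and LATS2 and the loss of actin tension keep them in the cytoplasm. The regulation acts mainly on the proteins, so the messengers of YAP1, WWTR1 and the TEADs need not change with it. Those of the targets are the usual readout in cells. All libraries here are of vesicle RNA, and whether it follows the RNA of the cells was not tested.

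TEADs recognise the letters GGAATG, read as CATTCC on the other strand. The windows from 250 bases before to 50 bases after the start of the targets are shown because they carry, or do not carry, these letters; sequences are from the RefSeq promoter table (GRCh38.p14), 5′ to 3′ on the strand of the gene, with matches in capitals. The table matched 7 of the 10 genes. CCN1, TEAD1 and TEAD4 are among those without an entry.
CCN2, chr6:131951323-131951622, minus strand: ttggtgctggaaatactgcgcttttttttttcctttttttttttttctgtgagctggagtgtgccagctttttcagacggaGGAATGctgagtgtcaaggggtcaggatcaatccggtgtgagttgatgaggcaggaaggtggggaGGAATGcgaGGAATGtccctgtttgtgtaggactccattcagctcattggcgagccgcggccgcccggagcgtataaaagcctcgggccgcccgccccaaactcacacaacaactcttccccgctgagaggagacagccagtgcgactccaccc
ANKRD1, chr10:90921038-90921337, minus strand: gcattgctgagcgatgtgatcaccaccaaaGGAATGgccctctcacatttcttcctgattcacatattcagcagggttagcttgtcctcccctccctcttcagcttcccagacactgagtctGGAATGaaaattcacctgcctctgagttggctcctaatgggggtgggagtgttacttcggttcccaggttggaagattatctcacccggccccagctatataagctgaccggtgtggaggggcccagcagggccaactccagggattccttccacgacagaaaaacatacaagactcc
NT5E, chr6:85449833-85450132, plus strand: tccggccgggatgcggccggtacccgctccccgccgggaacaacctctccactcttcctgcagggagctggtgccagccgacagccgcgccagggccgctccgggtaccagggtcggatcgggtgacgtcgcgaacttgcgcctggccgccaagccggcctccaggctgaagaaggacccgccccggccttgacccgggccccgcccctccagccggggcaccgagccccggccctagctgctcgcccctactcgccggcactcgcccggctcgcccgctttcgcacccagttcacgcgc
CCN2 held 3 matches, whose first letters lie 169, 104 and 95 bases before the start. ANKRD1 held 2, at 220 and 128 bases before the start, and NT5E held 0. Both strands were searched, and every match was on the strand of the gene. Of all 35116 windows of this length 14.0% held at least 1 match, 1.37% at least 2 and 0.128% at least 3. YAP1 held 1 match, 162 bases before its start, and the windows of WWTR1, TEAD2 and TEAD3 held 0. A match is a run of letters and not a shown binding site, and 0 matches says only that the letters are not in this window.

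The libraries held 2697502 to 2977837 counts in stiff and 2445498 to 2545385 in soft. Ribosomal RNA genes took up to 22.9% of counts in stiff and up to 8.87% in soft libraries, and mitochondrially encoded genes 0.162% to 0.201% and 1.48% to 1.81%. Shares of a library total are therefore not comparable for other genes, and levels between groups are given as CPM, a count relative to the library size scaled by TMM, a factor that sets the middle of the gene distribution equal. With vesicle RNA in bulk, fewer vesicles and less RNA per vesicle cannot be told apart. Each library had a count for 97.5% to 97.9% of all genes in the table, so a count by itself tells little about a gene, and whether some of the counts came from DNA was not tested. Of 8 squamous markers (KRT5, KRT14, KRT6A, KRT17, TP63, CDH1, EPCAM and SFN) and 10 markers of fibroblasts, leukocytes and endothelium, 0 were at 0 counts in any library. Summed as CPM, the squamous markers had 225 to 247 in stiff and 208 to 221 in soft, and the other markers 331 to 364 and 341 to 354. Relative to library totals alone the squamous sums ran the other way, at 199 to 223 in stiff and 216 to 241 in soft. One squamous marker, the basal keratin KRT14, was called higher in stiff, at a log2 fold change of 0.69 ± 0.17 (SE of 3 libraries per group, edgeR adjusted p = 0.0281). Of the 8 squamous markers 5 had log2 fold changes above 0, and 3 lay below, TP63 (−0.12), EPCAM (−0.09) and SFN (−0.22). Under library totals alone TP63 was called lower in stiff (−0.39, edgeR adjusted p = 0.0359), as were COL1A1 and PTPRC among the other markers. The part of these differences in the results below was not tested.

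No gene of the set passed the test between stiff and soft. Called genes have an adjusted p under 0.05 in edgeR's quasi-likelihood test over 31074 genes, by which 0.286% of all genes were higher in stiff and 0.164% lower. The count of members was 0 of 10 by edgeR, 0 by DESeq2 and 0 by limma-voom, and 2 members, NT5E and TEAD1, had an unadjusted edgeR p under 0.05, as did 9.51% of all genes. Log2 fold changes were above 0 for 6 members (for 2 when scaled by library totals alone) and below 0 for 4, with a median log2 fold change of 0.10 against −0.00484 for all genes tested. In 3 members, TEAD1, TEAD4 and NT5E, every stiff library lay above every soft one, an arrangement seen in 7.38% of all genes. The opposite arrangement occurred in 0 members and in 6.76% of all genes. For 8 of the 10 members the 95% interval of the difference lay within 1.5-fold in either direction, and for ANKRD1 and NT5E it did not. Intervals are those of single genes, not adjusted for the number tested. They refer to all counts of a gene with no background removed, and the share of background in them was not tested.

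**Figure D1:**
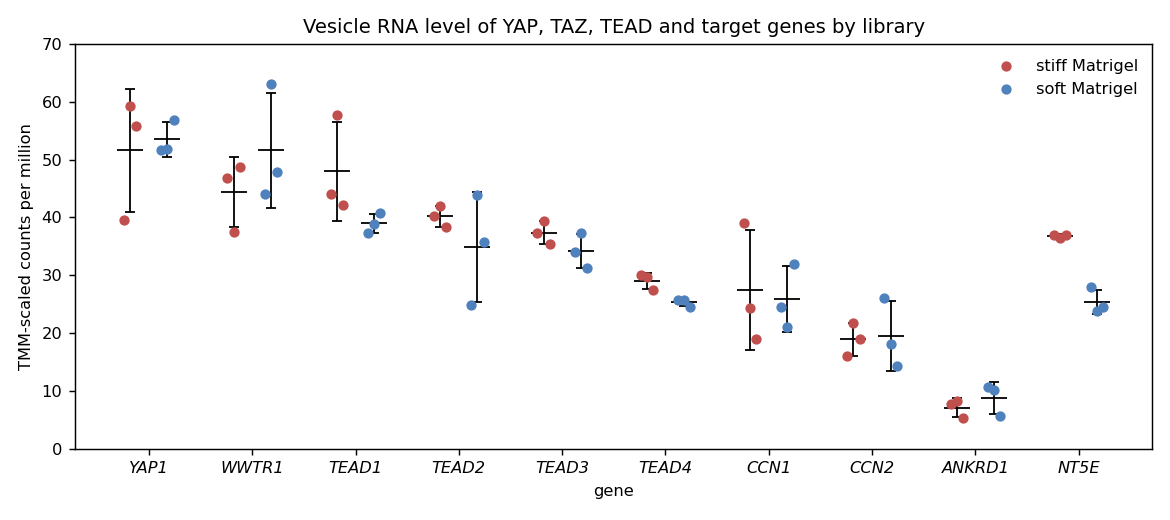
TMM-scaled CPM of each gene (vertical axis) in the 3 stiff libraries (red) and 3 soft libraries (blue), with the mean and SD in black. Stiff points lie above all soft points for TEAD1, TEAD4 and NT5E, and the groups overlap for the other members. Under library totals alone the fold change of TEAD4 was below 0.

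YAP1, the coactivator itself, lies on chromosome 11 (102110461 to 102233423, GRCh38, plus strand). It had 39.5, 59.3 and 55.9 CPM in the stiff libraries, against 51.7, 51.8 and 56.9 CPM in the soft libraries. Stiff replicate 1 was the lowest of the 6 and stiff replicate 2 the highest, so the groups overlapped. The means were 51.6 ± 10.6 CPM in stiff and 53.5 ± 2.99 CPM in soft (SD, n = 3 each). Stiff over soft stood at −0.05 ± 0.13 on the log2 scale (SE; edgeR adjusted p = 0.950), and the 95% interval in fold terms ran from 0.815 to 1.15. This difference was 0.11 without stiff replicate 1 and −0.16 without stiff replicate 2. An antisense gene that overlaps 628 bases of the YAP1 exons, and one that overlaps 195 bases of the CCN2 exons, were not analysed here.

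WWTR1 encodes TAZ, the close relative of YAP, and lies on chromosome 3 (149517235 to 149736714, minus strand). Stiff libraries had 46.9, 37.5 and 48.7 CPM of WWTR1, against 44.0, 63.0 and 47.9 CPM in soft. Soft replicate 2 stood above the other 5 libraries, which spread over 37.5 to 48.7 CPM. On the log2 scale stiff over soft stood at −0.22 ± 0.13 (SE; edgeR adjusted p = 0.617), a fold of 0.857 with a 95% interval of 0.716 to 1.03, and −0.05 without soft replicate 2. Scaled by library totals alone WWTR1 was called lower in stiff (log2 fold change −0.49, adjusted p = 0.00917), in a fit where the median of all genes was −0.273 and 4163 genes were called lower. The antisense gene WWTR1-AS1 shares 795 bases of exon with WWTR1, and although the library kit keeps the strand, the setting used for counting is not given in the sources used here, so reads there cannot be assigned. WWTR1-AS1 had 52, 39 and 70 counts in stiff libraries, against 63, 70 and 42 counts in soft.

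The TEAD genes encode the DNA-binding partners of YAP and TAZ, and all 4 had log2 fold changes above 0, none past the test, while under library totals alone those of TEAD2, TEAD3 and TEAD4 were below 0. TEAD1, on chromosome 11 (12674591 to 12944483), had 44.0, 57.8 and 42.2 CPM in stiff libraries, against 37.4, 38.8 and 40.7 CPM in soft. The groups did not overlap, though the nearest values were 42.2 CPM in stiff and 40.7 CPM in soft. The difference was 0.30 ± 0.14 on the log2 scale (SE; edgeR adjusted p = 0.438), a fold of 1.23 with a 95% interval of 1.02 to 1.49, and 0.15 without stiff replicate 2, the highest library. TEAD4, on chromosome 12 (2959330 to 3040673), had 30.0, 29.7 and 27.4 CPM in stiff, against 25.7, 25.7 and 24.5 CPM in soft. These groups did not overlap either, with 0.20 ± 0.17 for stiff over soft on the log2 scale (SE; edgeR adjusted p = 0.770). For 3 against 3 libraries the smallest two-sided exact permutation p is 0.1, which TEAD1, TEAD4 and NT5E reached.

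TEAD2, on chromosome 19 (49340595 to 49362457), had 40.3, 42.0 and 38.4 CPM in stiff, against 24.9, 43.8 and 35.8 CPM in soft. The soft libraries spread widely and enclosed the stiff ones. The log2 difference of 0.21 ± 0.15 (SE; edgeR adjusted p = 0.704) shrank to 0.02 when soft replicate 1 was left out and stood at 0.41 when soft replicate 2 was. Exons of CD37, a leukocyte tetraspanin gene on the opposite strand, overlap 319 bases of the TEAD2 exons, and CD37 had 28.2 ± 1.97 CPM in stiff and 26.8 ± 5.24 CPM in soft (SD, n = 3 each). TEAD3, on chromosome 6 (35473597 to 35497076), had 37.4, 39.4 and 35.4 CPM in stiff, against 34.1, 37.3 and 31.3 CPM in soft. The TEAD3 groups overlapped, 0.13 ± 0.15 apart on the log2 scale (SE; edgeR adjusted p = 0.852). Under library totals alone TEAD2, TEAD3 and TEAD4 stood at −0.06, −0.14 and −0.07 and TEAD1 at 0.04, all above the −0.273 of all genes.

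NT5E, which encodes the ecto-nucleotidase CD73 that forms extracellular adenosine and is also found on the surface of small vesicles, had the smallest p of the set. It lies on chromosome 6 (85449584 to 85495791). NT5E had 90, 97 and 97 counts in the stiff libraries, against 76, 66 and 65 counts in the soft libraries. Scaled, these were 37.0, 36.4 and 36.9 CPM in stiff, against 27.9, 23.9 and 24.5 CPM in soft. All 3 stiff values lay above the soft ones, with a gap wider than the spread within either group. NT5E differed by 0.53 ± 0.16 on the log2 scale (SE; edgeR adjusted p = 0.118), a fold of 1.44 with a 95% interval of 1.16 to 1.79, and it did not pass the threshold. The stiff libraries differed from each other by a CV of 0.855%, less than the 10.3% that counting error alone gives at these counts. In all 15 alternatives the NT5E difference was above 0, at 0.26 to 0.60, with adjusted p from 0.0811 to 0.669. The lowest came from edgeR with the replicate block and GC and length correction, adjusted over 23078 genes, and the highest from DESeq2, over 38087.

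The matricellular targets CCN1 and CCN2, whose proteins bind integrins and growth factors, had no separation between the groups. CCN1, on chromosome 1 (85580761 to 85583962), had 39.1, 24.4 and 19.0 CPM in stiff, against 24.6, 21.0 and 32.0 CPM in soft. Stiff libraries held both the highest and the lowest value. CCN1 stood at 0.08 ± 0.18 on the log2 scale (SE; edgeR adjusted p = 0.937), at −0.25 without stiff replicate 1 and at −0.19 under library totals alone. CCN2, on chromosome 6 (131948176 to 131951373), had 16.0, 21.8 and 19.0 CPM in stiff, against 26.0, 18.1 and 14.3 CPM in soft. Here the soft libraries held both extremes. The CCN2 difference was −0.04 ± 0.21 on the log2 scale (SE; edgeR adjusted p = 0.979), a fold of 0.973 with a 95% interval of 0.734 to 1.29, and it was 0.23 without soft replicate 1. The windows of CCN2, ANKRD1 and NT5E, with 3, 2 and 0 matches, belong to genes with fold changes of 0.973, 0.807 and 1.44, none of them called. Whether matches and fold changes are related was not tested.

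ANKRD1, a target that encodes a nuclear and sarcomeric ankyrin repeat protein, had the fewest counts of the set. It lies on chromosome 10 (90912096 to 90921276) and had 19, 22 and 14 counts in stiff libraries, against 29, 28 and 15 counts in soft. Scaled, these were 7.81, 8.26 and 5.32 CPM in stiff, against 10.6, 10.1 and 5.66 CPM in soft. Replicate 3 was the lowest of both groups, and the groups overlapped. Its difference was −0.31 ± 0.31 on the log2 scale (SE; edgeR adjusted p = 0.819). It was −0.13 without stiff replicate 3 and −0.54 without soft replicate 3. Counting error alone gives a CV of 23.4% in stiff and 20.4% in soft, and the interval of the fold, 0.526 to 1.24, was the widest of the 10.

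**Figure D2:**
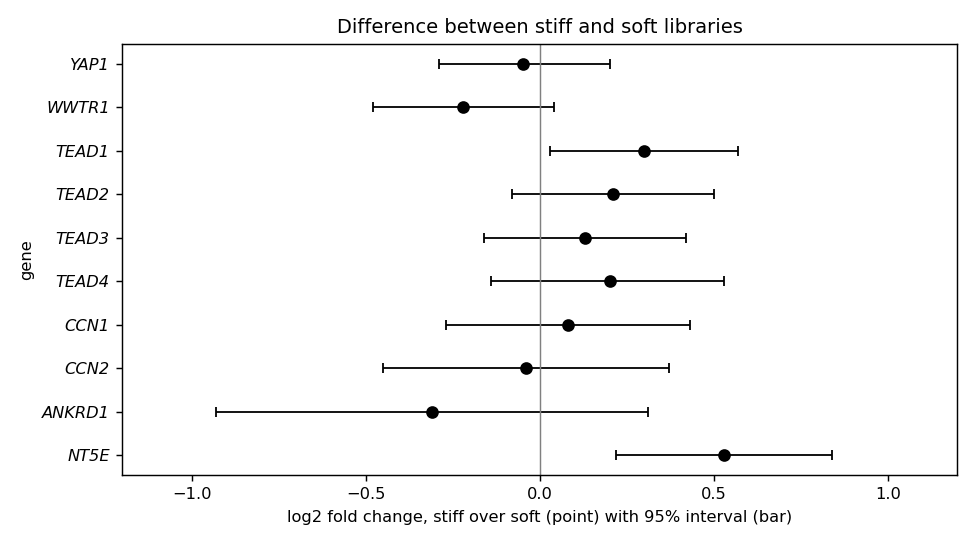
Log2 fold change of stiff over soft (horizontal axis) for each gene, with its 95% interval. The intervals of NT5E (0.22 to 0.84) and TEAD1 (0.03 to 0.57) leave out 0 before adjustment for the number of genes tested, and those of the other 8 members hold 0.

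No gene of the other pathway lists passed the test. Of 18 other YAP/TAZ targets 0 were called by edgeR, DESeq2 or limma-voom, 2 had an unadjusted edgeR p under 0.05, and the median log2 fold change was 0.07. The smallest p-values in that list belonged to FOXF2, a forkhead factor, at a log2 fold change of 0.35 ± 0.15 (SE; edgeR adjusted p = 0.406). LATS2, a kinase that phosphorylates YAP and is also its target, followed at 0.28 ± 0.13 (edgeR adjusted p = 0.470), and F3, which encodes tissue factor, at 0.33 ± 0.22 (edgeR adjusted p = 0.670). Of 16 genes of the upstream kinase module, from the STK3 and STK4 kinases to NF2, 0 were called by any of the 3 tools and 1 had an unadjusted edgeR p under 0.05, with a median of −0.01. After LATS2 the smallest p-values there were those of WWC3, a KIBRA relative (log2 fold change 0.27, edgeR adjusted p = 0.531), and MAP4K4, a kinase that acts on LATS (0.23, adjusted p = 0.535). Of 8 partners, the angiomotins, PTPN14 and the vestigial-like TEAD cofactors, 0 were called by any of the 3 tools and 1 had an unadjusted edgeR p under 0.05, with a median of 0.03. VGLL2 led them at a log2 fold change of 0.38 (edgeR adjusted p = 0.483), followed by PTPN14 at 0.13 (0.743) and VGLL3 at 0.16 (0.765). The counts at an unadjusted p are to be read against the 9.51% of all genes. The median of the other targets was 0.027 with a correction for GC content and length. It was −0.198 under library totals alone, where that of all genes was −0.273. The partners' median was 0.10 without stiff replicate 1, 0.00 without soft replicate 2 and −0.01 with a correction for GC content and length, and the kinase median was −0.07 without stiff replicate 2 and 0.02 without stiff replicate 1. LATS2 stands in the lists of targets and kinases, and AMOTL2 and PTPN14 in those of targets and partners.

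**Figure D3:**
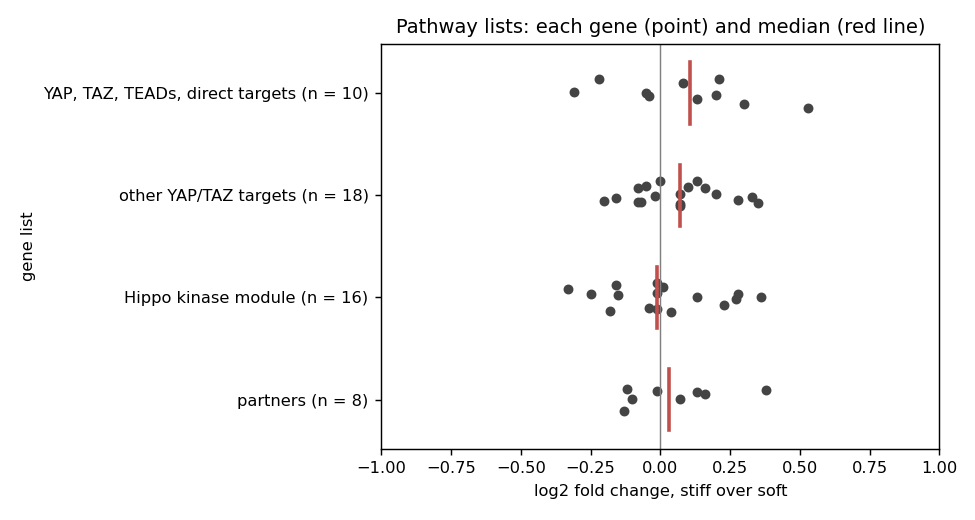
Log2 fold change of stiff over soft (horizontal axis) of each gene in 4 lists, with the median as a red line. The medians lie at 0.10 for the 10 members, 0.07 for the other targets, −0.01 for the kinase module and 0.03 for the partners.

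Levels of different genes were compared as counts per kb of exon, with all GENCODE 29 exons of a gene joined. TEAD2 was first at 33.3 ± 6.07 counts per kb over the 6 libraries, TEAD4 had 31.5 ± 2.00, TEAD3 31.1 ± 2.67 and CCN1 28.5 ± 6.88 (SD, n = 6). YAP1 followed at 22.1 ± 3.51 counts per kb, then CCN2 at 21.8 ± 5.28, NT5E at 18.1 ± 3.26, WWTR1 at 15.1 ± 2.99, TEAD1 at 11.2 ± 1.89 and ANKRD1 at 10.7 ± 3.22. Each neighbouring pair in this order overlapped in range. The levels run with the GC content of the transcripts, from 42.8% in TEAD1 to 62.7% in TEAD4. Across the 10 genes Pearson's r of the log2 level with GC content was 0.868, and across 18741 protein-coding genes 0.648. Both describe genes of the same libraries, which are not independent replicates.

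The annotation behind the counts is not given in the sources used here, so exon lengths carry an uncertainty of their own. With the longest transcript as length, chosen after seeing the data, WWTR1 averaged 25.3 counts per kb (19.9 to 34.6 over the 6 libraries), beside 25.8 (17.8 to 29.3) for YAP1. The order then ran TEAD4 (42.4), TEAD2 (40.6), TEAD3, CCN1, YAP1, WWTR1, CCN2, NT5E, TEAD1 and ANKRD1, again with overlapping ranges between neighbours. With joined exons the ratio of YAP1 to WWTR1 was 1.13, 2.11 and 1.53 in stiff libraries and 1.57, 1.10 and 1.59 in soft. TEAD1 was the lowest TEAD in all 6 libraries with joined exons, at 9.89% to 12.3% of the summed TEAD level per kb in stiff and 8.97% to 10.7% in soft. Its joined exons cover 10279 bases, but those of its transcripts with a RefSeq match only 2544. For TEAD2, TEAD3 and TEAD4 the RefSeq-matched exons cover 2329, 2983 and 1805 bases. Levels by these lengths were not computed, so the rank and level per kb of TEAD1 hold only for the lengths used.

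Olfactory receptor genes, taken as silent in squamous cells, served as a background of the same assay. Whether all of them were silent in Cal27 was not tested. Their 381 genes had a median of 10.2 to 11.0 counts per kb in stiff and 11.6 to 12.1 in soft libraries, and at most 2 of them were at 0 in any library. Against olfactory receptor genes within 5 percentage points of GC content, YAP1 stood at 1.89 ± 0.295 times their median, CCN1 at 1.74 ± 0.534, NT5E at 1.63 ± 0.357 and CCN2 at 1.44 ± 0.265 (SD over 6 libraries), above that median in 6 of 6 libraries. WWTR1, TEAD1 and ANKRD1 stood at 1.13 ± 0.214, 1.07 ± 0.205 and 0.981 ± 0.250 times the median and were above it in 4, 3 and 3 of 6 libraries. All 7 genes lay within the spread of the olfactory receptor genes. In their lowest library YAP1, CCN1, NT5E and CCN2 stood at percentiles 72.6, 67.5, 68.0 and 59.2 of the olfactory receptor genes of like GC content, and in their highest at 93.1, 94.8, 92.3 and 88.8. WWTR1 ranged over percentiles 41.2 to 78.2, TEAD1 over 41.7 to 81.2 and ANKRD1 over 21.1 to 71.1. With the longest transcript as length the ratios were 1.87 for WWTR1, 1.27 for TEAD1 and 0.968 for ANKRD1. The ratio of TEAD1 holds only for these lengths, since its RefSeq-matched exons cover 2544 bases against 10279 joined and were not used.

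For TEAD2, TEAD3 and TEAD4 fewer than 20 olfactory receptor genes had a like GC content. Protein-coding genes of like GC content were used instead, as a comparison chosen after seeing the data. With joined exons TEAD2 stood at 1.43 ± 0.252 times their median and TEAD4 at 1.07 ± 0.0755 (SD over 6 libraries), both above it in 5 of 6 libraries. TEAD3 stood at 1.2 times the median and was above it in 6 of 6. With the longest transcript as length TEAD3 fell to 0.923 ± 0.0672 times the median, at percentiles 33.3 to 49.4. TEAD2 and TEAD4 then stood at 1.32 ± 0.235 and 1.10 ± 0.0727. Against protein-coding genes of like GC content and with joined exons, the 10 genes had a median ratio of 1.27 (0.910 to 1.73). The 8 squamous markers had 1.05 (0.814 to 1.56) and the 10 markers of other cells 0.863 (0.437 to 1.49). The ranges of the 3 lists overlapped, so the markers of the labelled cell type did not stand clear of those of other cells.

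**Figure D4:**
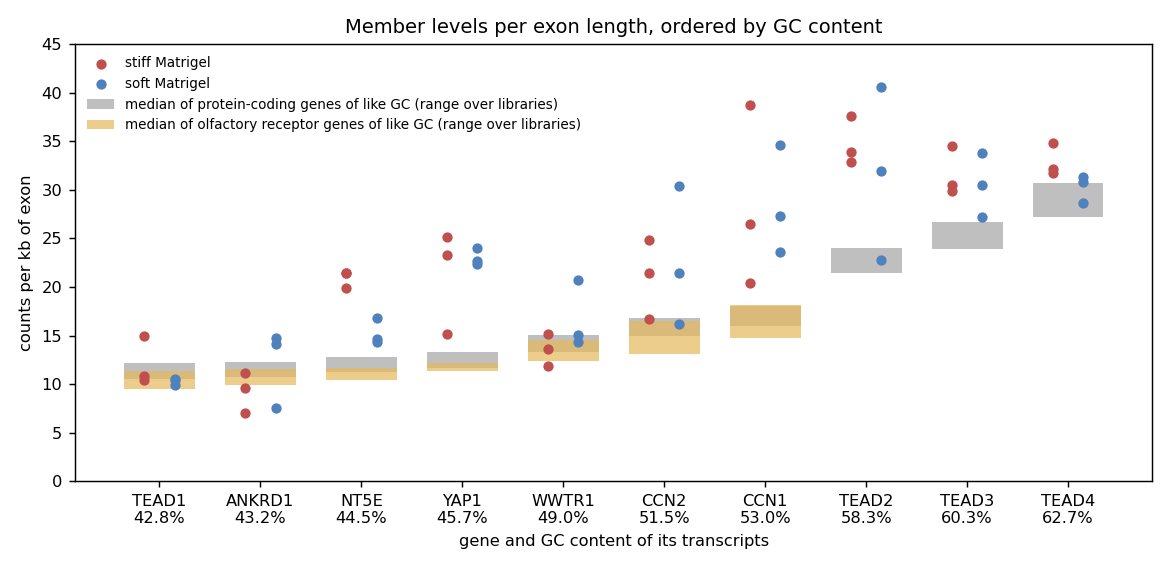
Counts per kb of exon (vertical axis) of each gene in stiff (red) and soft (blue) libraries, ordered by GC content, with the range over libraries of the median of protein-coding genes (grey) and, where at least 20 were available, of olfactory receptor genes (yellow) of like GC content. TEAD1, ANKRD1 and WWTR1 lie around the bands, YAP1, NT5E and CCN1 above them in 6 of 6 libraries, and CCN2 above them except for 1 library of each group, at 16.7 in stiff and 16.2 in soft, which lie in the grey band, the soft one also in the yellow band.

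Among 7130 genes with a mean of at least 100 counts, those most like YAP1 across the 6 libraries were IARS1, ZBTB42 and KCP, with Pearson's r of log2 CPM of 0.971, 0.970 and 0.967. IARS1, a cytosolic isoleucyl-tRNA synthetase gene on chromosome 9, had 29.2, 41.3 and 38.4 CPM in stiff, against 37.4, 36.9 and 43.0 CPM in soft, with its low value in stiff replicate 1 as in YAP1. With 6 libraries and this many genes such values are a description.

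**Figure D5:**
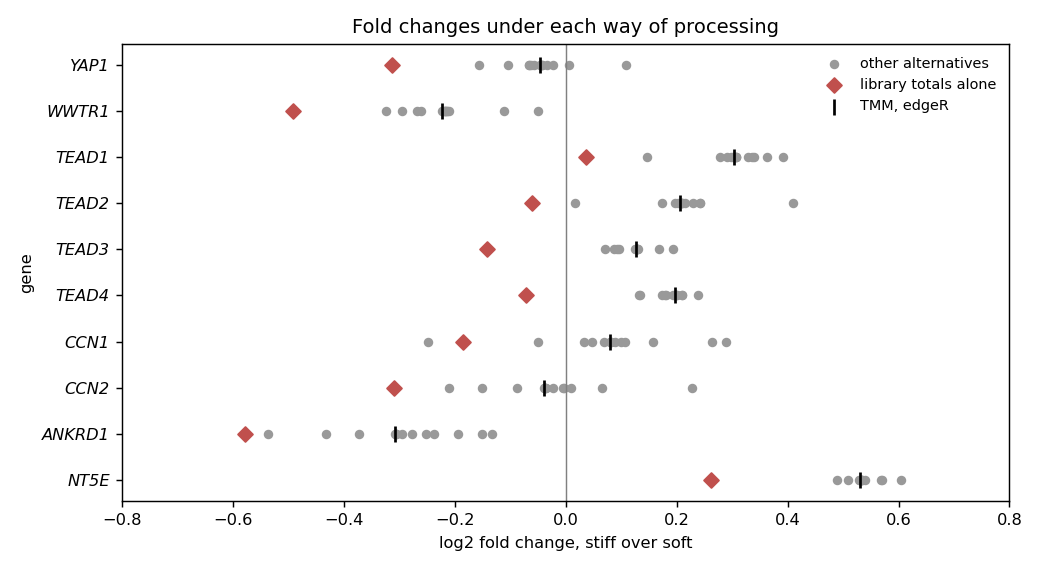
Log2 fold change of stiff over soft (horizontal axis) of each gene by the reported fit (black tick), under library totals alone (red diamond) and under the other 14 alternatives (grey). NT5E, TEAD1, WWTR1 and ANKRD1 keep their direction in all of them, and library totals alone move every gene to the left, with TEAD2, TEAD3, TEAD4 and CCN1 then below 0.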

How the data were processed

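The members and gene lists were chosen with earlier results of these data known. The authors deposited raw counts per gene symbol, with no normalization. Per the submitters' processing notes the tools were FastQC 0.11.7, Trim Galore 0.4.2, cutadapt 1.9.1, STAR 2.6.1e, featureCounts 1.6.2 and DESeq2, with build hg38. Annotation, strand setting, a DNase treatment and the handling of reads in several genes are not given in the sources used here. Per the labels, about 10 ng of total RNA went through 9 PCR cycles. In the descriptions 2 stiff libraries share a replicate number, so the titles' numbers were used.

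The contrast of stiff over soft was fitted in R 4.3.3 with edgeR 4.0.16, after filterByExpr (7093 genes removed) and TMM scaling, by robust two-sided quasi-likelihood tests, adjusted by Benjamini-Hochberg over 31074 genes. Standard errors came from the F statistic. DESeq2 1.42.0, without its filter on mean count, and limma-voom (limma 3.58.1) were alternatives. Exon lengths and GC content came from GENCODE 29, which held 71.3% of symbols and all 10 members. GC and length correction used splines per library. The exact permutation tests used CPM. Reads carry no molecular identifiers, so counting CVs cover counting error only. The procedure was tested on simulated data with a single dispersion of 0.007, with differences planted in genes of 21.2 to 139 mean counts. It recovered 18 of 50 planted differences of 1.5-fold, 88 of 100 of 2-fold and 50 of 50 of 4-fold. A gene that was not called is therefore not shown to be unchanged. The named genes were all members and, in each other list, those called or else the 3 with the smallest p. Replicates differed by more than sampling noise (chi-square per degree of freedom 1.44 to 1.59).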

Additional observations from a re-analysis of the deposited data

How the results depend on the processing

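Of 150 values (10 genes under 15 alternatives) 138 kept their direction and their side of the threshold, and 11 changed direction. No gene of the set was called in 14 of the 15 alternatives. Library totals alone called 1 of them (WWTR1), with 4 other targets, 4 kinase module genes and 1 partner, each lower in stiff, among 4194 genes called where the reported fit called 140. There the median log2 fold change of the set was −0.165, and TEAD2, TEAD3, TEAD4 and CCN1 changed direction to −0.061, −0.143, −0.072 and −0.186. Taken over all 31074 genes tested, the median there was −0.273, against −0.005 in the reported fit. Which scaling suits vesicle RNA was not tested. DESeq2 called 46 genes, GC and length correction 63, and that correction with the replicate block 65. Without 1 library the count was 60 (without stiff replicate 2) to 136 (without soft replicate 3). The log2 fold change then ranged from −0.157 to 0.109 for YAP1, −0.248 to 0.288 for CCN1 and −0.211 to 0.227 for CCN2, and the median of the set from 0.072 to 0.203 (without stiff replicate 3). With the replicate block and GC and length correction CCN2 stood at 0.010. The cause of these changes was not tested.

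Deviations of same-numbered libraries from their group means had correlations of −0.00363 to 0.00346, and those of differently numbered ones −0.00793 to 0.00529. Counting error makes up much of such deviations, so these values cannot show that pairs are absent. The numbers were not read as pairs because the labels do not say that they mark a shared batch. The replicate block called 173 genes, and 0 members. The median over all members of the level per kb relative to olfactory receptor genes of like GC content was 1.535. It was 1.935 with all olfactory receptor genes, 1.865 with the longest transcript as length and 1.270 against protein-coding genes. The last 2 were chosen after seeing the data. The values 1.535 and 1.865 include TEAD2, TEAD3 and TEAD4, for which only 14, 8 and 4 olfactory receptor genes had a like GC content. Depth limits ANKRD1 most.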

Other observations

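The fold changes of the members were set beside those of their neighbours, as values with no test, in a window of 1 Mb on either side chosen after seeing the data. Values are median log2 fold changes of stiff over soft. For YAP1 the median was −0.03 (22 genes, 10 above 0), and for WWTR1 −0.14 (26 genes, 7 above 0), where WWTR1 itself stood at −0.22. Around TEAD1 it was −0.13 (11 genes, 4 above 0), beside 0.30 for TEAD1, and around TEAD2 0.09 (96 genes, 64 above 0), beside 0.21 for TEAD2. TEAD3 had 0.04 (35 genes, 23 above 0) and TEAD4 −0.07 (20 genes, 6 above 0). Among the targets, CCN1 had −0.02 (18 genes, 9 above 0), CCN2 0.08 (22 genes, 15 above 0), ANKRD1 0.01 (11 genes, 6 above 0) and NT5E −0.05 (4 genes, 1 above 0), beside 0.53 for NT5E itself.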
